A study of Mus musculus with 6 samples.

Results

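The genes described here encode 6 families of liver enzymes that oxidise alcohols and aldehydes or reduce ketones: alcohol dehydrogenases (Adh), aldehyde dehydrogenases (Aldh), aldo-keto reductases (Akr), carbonyl reductases (Cbr), and 2 sets of short-chain dehydrogenases (Dhrs, and the retinol dehydrogenases Rdh). Members were all probe sets with a single gene symbol made of 1 of these stems and a digit, leaving out Akr1d1, and each gene was read from its probe set of highest mean over the 6 arrays. This gave 65 genes of the 18193 measured, namely 7 Adh, 20 Aldh, 14 Akr, 4 Cbr, 9 Dhrs and 11 Rdh genes. Transcripts were measured in total RNA of whole liver on Affymetrix mouse arrays, with 1 array per liver. The 3 KO livers came from 10-week-old male mice with the genotype L Pex5 -/-, a knockout in the liver of Pex5, the receptor that imports enzymes into peroxisomes. The 3 WT livers came from 10-week-old male mice labelled WT. Labels of both groups give the same mixed background with Alb-Cre (Alb-Cre Tac:[Sw]fBR), and whether WT animals carried floxed alleles was not given in the labels. Alb-Cre is under the albumin promoter, a promoter of hepatocytes and their progenitors, and recombination in each cell type of these livers was not measured here.

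Alcohol dehydrogenases turn ethanol and retinol into aldehydes with NAD+, and aldehyde dehydrogenases turn aldehydes into acids. Retinol is stored in the liver and is oxidised by retinol dehydrogenases to retinaldehyde. Aldh1a1 and other Aldh1a enzymes oxidise retinaldehyde to retinoic acid, and several Dhrs and Rdh enzymes reduce retinaldehyde back. Carbonyl and aldo-keto reductases use NADPH to reduce quinones, lipid aldehydes, prostaglandins and steroids.

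Levels are log2 values made with RMA, differences are KO minus WT, and the error of a difference is the SE of limma's fit. A gene was called at a Benjamini-Hochberg adjusted p under 0.05 over all 18193 genes. RMA scales arrays to one another, so levels and directions are relative to the bulk of the genes. Array medians ran from 5.04 to 5.10, arrays of 1 group correlated at 0.989 or above, and Pex5 itself differed by 0.18 ± 0.11 (adjusted p = 0.262) in a probe set whose place relative to the deletion was not given in the sources used here. Spiked bacterial control transcripts averaged 9.29 to 9.40 on KO arrays and 9.81 to 9.91 on WT arrays. Centring the arrays on them adds 0.51 to each difference and moves the median over all genes from -0.055 to 0.46. A level of 4.90, the 95th percentile of the means of 39 olfactory receptor genes, which liver should not express, served as background.

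In KO livers 14 of the 65 genes were higher and 16 lower, so that 30 were called, where 24.0% of all genes were called (14.2% higher and 9.75% lower). The median difference of the 65 was -0.12, against -0.055 over all genes. On the scale of the bacterial controls 36 were higher and 3 lower, namely Adh4, Dhrs1 and Rdh16f2, with 71.3% and 2.25% of all genes called in these directions. At least 2-fold differences were found in 6 higher and 2 lower members, against 3.02% and 1.80% of all genes. Those rises were Cbr3, Cbr1, Akr1c19, Aldh3a2, Aldh18a1 and Aldh1b1, and those falls were Rdh16f2 and Dhrs1. KO arrays lay wholly above WT arrays in 18 members and wholly below in 23, a separation that 44.8% of all genes showed in either direction. In each of the 30 called members the groups did not overlap, which largely restates the call with 3 arrays per group and adds no support. Of the 54 members with a mean above background 27 were called, where 32.0% of all genes above background were called. In the 11 dimmer members 3 calls were made, against 8.32% of all dim genes. The count of lower members was 7 without KO replicate 2, and between 11 and 16 without any other single array. Without 1 array at a time, 10 to 13 members were higher.

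**Figure D1:**
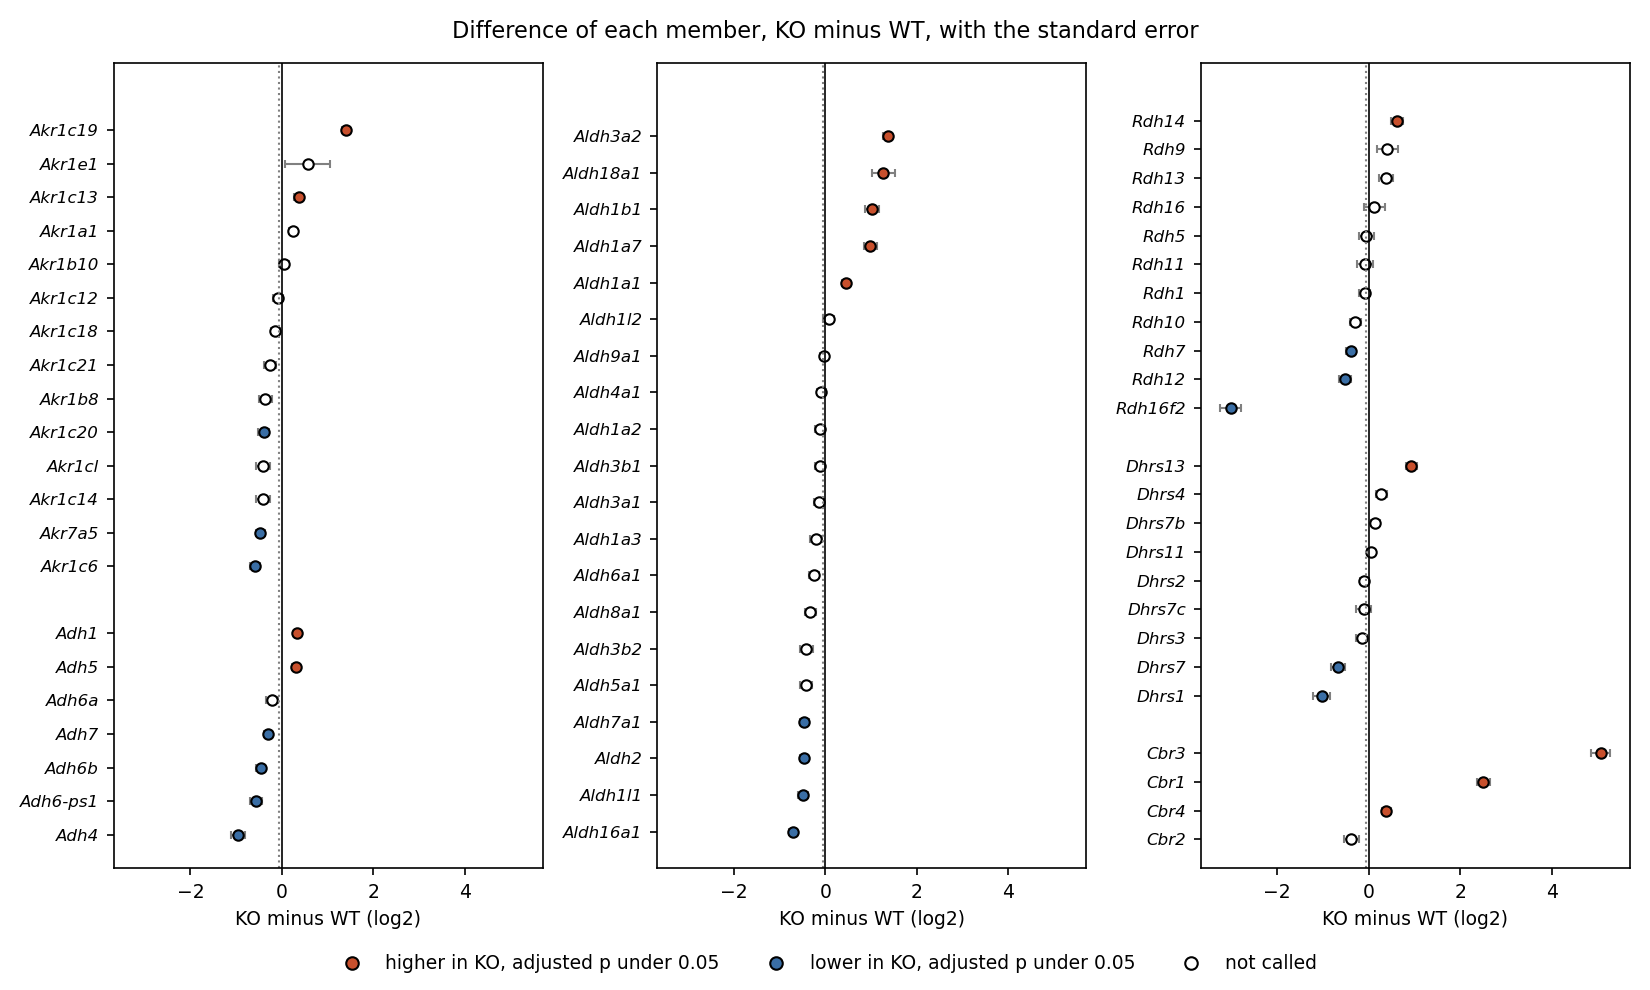
Difference KO minus WT (log2) of each of the 65 members by family, with bars for the SE of the fit from 3 KO and 3 WT livers. Filled points passed at an adjusted p under 0.05, and the dotted line is the median of all genes (-0.055). Cbr3, Cbr1 and Rdh16f2 stand apart from the other members, most of which lie within 1 unit of 0.

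By family, 3 of 4 Cbr genes were higher and the other was not called, 5 of 20 Aldh genes higher and 4 lower, 2 of 7 Adh genes higher and 4 lower, 2 of 14 Akr genes higher and 3 lower, 1 of 9 Dhrs genes higher and 2 lower, and 1 of 11 Rdh genes higher and 3 lower. Median differences were 1.45 for Cbr, -0.13 for Aldh, -0.30 for Adh, -0.20 for Akr, -0.091 for Dhrs and -0.080 for Rdh genes. Of all genes 14.2% were higher and 9.75% lower as deposited, and 32.0% of those above background were called. Apart from the Cbr genes, each family held calls in both directions as deposited. Once centred on the spiked controls, 3 Cbr, 11 Aldh, 2 Adh, 6 Akr, 7 Dhrs and 7 Rdh genes were higher, and 1 Adh, 1 Dhrs and 1 Rdh gene lower. Since centring adds 0.51 to each difference, each family median then lay above 0, the lowest being that of the Adh genes at 0.21. On that scale the median over all genes was 0.46, and 71.3% of all genes were higher and 2.25% lower. Only the Cbr median, at 1.96, lay above that of all genes.

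Carbonyl reductases held the largest rise of the set. Cbr3, a cytosolic NADPH-dependent reductase of ketones and quinones, stood at 9.81, 10.73 and 10.18 in KO livers and at 5.11, 5.10 and 5.31 in WT livers. All 3 WT values lay just above background, and every KO value lay far above every WT value. The difference was 5.07 ± 0.21, or 33.5-fold (adjusted p = 1.04e-05). Its paralogue Cbr1, which reduces quinones and prostaglandins, had 11.88, 11.98 and 11.77 in KO livers and 9.53, 9.09 and 9.51 in WT livers, so the groups did not overlap. Cbr1 was 5.67-fold higher (2.50 ± 0.14, adjusted p = 2.3e-05). Both genes neighbour each other in the RefSeq annotation of GRCm38.p6, with 0 protein-coding genes between them. In WT livers the Cbr3 probe set lay near background while the Cbr1 probe set was well above it. Cbr4, a mitochondrial subunit of the reductase of fatty acid synthesis, was higher by a smaller step, at 9.31, 9.33 and 9.18 in KO livers and 9.04, 8.86 and 8.76 in WT livers (0.39 ± 0.10, adjusted p = 0.0311). Cbr4 no longer passed once KO replicate 1, 2 or 3 was left out (adjusted p = 0.106, 0.111 and 0.0526) and without WT replicate 2 or 3 (0.0757 and 0.0639). Cbr2, a reductase best known from the lung, lay below background on every array (-0.38 ± 0.17, adjusted p = 0.131). Once WT replicate 1 was left out it was called lower (-0.58, adjusted p = 0.00931), and its sign turned on the control scale.

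**Figure D2:**
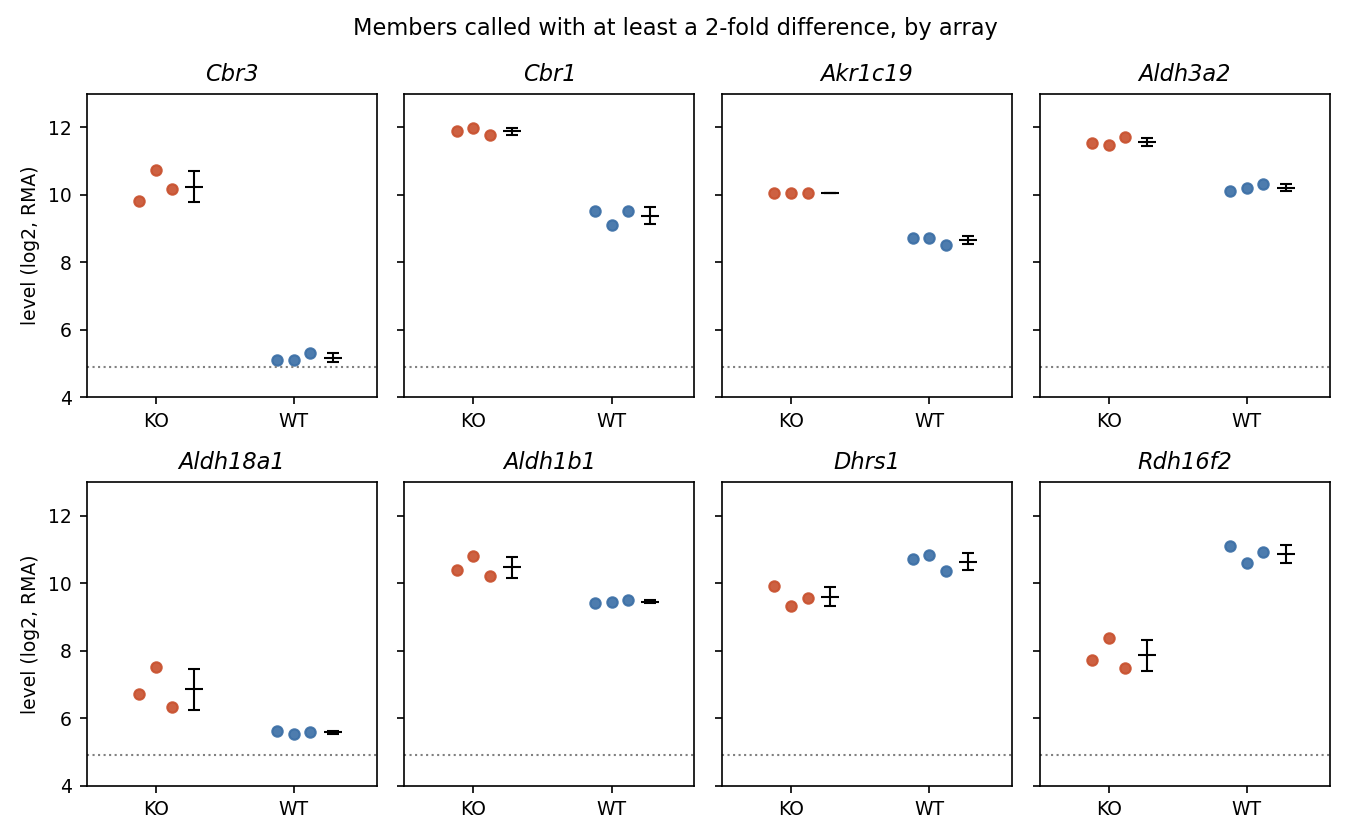
Level (log2, RMA) on each array of the 8 members called with at least a 2-fold difference, KO left of WT, with the mean and SD of 3 livers beside the points and a dotted line at the background of 4.90. In each panel the KO and WT points do not overlap, and the WT points of Cbr3, followed by those of Aldh18a1, sit closest to the background.

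The stretches of 250 bases before the start sites of Cbr3 and Cbr1 are shown because these neighbouring genes rose together and by the most. Those of Akr1c19 and Rdh16f2 are shown because they held the largest rise of the Akr genes and the largest fall of all members. They are RefSeq sequences of GRCm38.p6 on the strand of the gene, 5′ to 3′, at chr16:93682969-93683218 (plus strand) for Cbr3, chr16:93607587-93607836 (plus) for Cbr1, chr13:4233490-4233739 (plus) for Akr1c19 and chr10:127866226-127866475 (plus) for Rdh16f2. Capitals mark GCGTG on either strand, the core bound by the aryl hydrocarbon receptor.
Cbr3: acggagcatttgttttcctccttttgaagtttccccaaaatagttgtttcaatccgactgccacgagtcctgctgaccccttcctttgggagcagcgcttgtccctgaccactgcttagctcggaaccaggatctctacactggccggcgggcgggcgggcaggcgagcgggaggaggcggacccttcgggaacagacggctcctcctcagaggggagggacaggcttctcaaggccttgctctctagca
Cbr1: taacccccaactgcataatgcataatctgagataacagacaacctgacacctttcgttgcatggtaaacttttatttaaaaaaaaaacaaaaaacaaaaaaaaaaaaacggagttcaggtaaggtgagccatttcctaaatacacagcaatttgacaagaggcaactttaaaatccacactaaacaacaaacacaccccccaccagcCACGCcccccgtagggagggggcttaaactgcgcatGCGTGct
Akr1c19: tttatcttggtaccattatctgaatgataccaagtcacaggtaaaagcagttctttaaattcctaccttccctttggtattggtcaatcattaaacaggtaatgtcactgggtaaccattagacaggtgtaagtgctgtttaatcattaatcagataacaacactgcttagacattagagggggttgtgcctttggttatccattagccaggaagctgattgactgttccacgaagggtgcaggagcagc
Rdh16f2: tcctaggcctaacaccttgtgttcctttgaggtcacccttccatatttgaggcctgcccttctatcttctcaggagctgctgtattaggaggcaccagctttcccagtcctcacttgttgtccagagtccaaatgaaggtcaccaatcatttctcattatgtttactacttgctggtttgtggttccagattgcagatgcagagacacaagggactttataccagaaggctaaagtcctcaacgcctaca
The Cbr1 window held GCGTG at 2 places, from 43 to 39 and from 7 to 3 bases before the start, and the other 3 windows held 0. GCGTG on either strand occurs in 28.2% of the 32851 windows of this length, and in those of 15 of the 53 members with an entry. TGACNNNGC, the core of the antioxidant response element bound by NRF2, was searched on both strands and occurs in 10.2% of all windows. None of these 4 windows held it, and of the 53 members 5 did (Adh6a, Akr1cl, Aldh1a2, Aldh9a1 and Rdh14). The strict form of DR1, a direct repeat of AGGTCA with a single base between, which is the type of element bound by PPARalpha with RXR, was found on either strand in 11 of the 32851 windows and in 0 of the members. With no match to the other motifs in the 4 windows, no overlap between motifs arose there.

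Among aldehyde dehydrogenases, members acting on fatty aldehydes, in proline synthesis and on acetaldehyde, and members of the Aldh1a type, held the 5 rises. Aldh3a2, the fatty aldehyde dehydrogenase, had 11.54, 11.48 and 11.71 in KO livers and 10.11, 10.20 and 10.32 in WT livers. It was 2.57-fold higher (1.36 ± 0.10, adjusted p = 0.000107), while the other 3 members that act on fatty or aromatic aldehydes, Aldh3a1, Aldh3b1 and Aldh3b2, were not called. Aldh3a1, next to Aldh3a2 in the annotation, lay below background on all 6 arrays. Aldh18a1, which makes the proline precursor pyrroline 5-carboxylate, had 6.72, 7.50 and 6.33 in KO livers and 5.61, 5.54 and 5.60 in WT livers. KO livers thus spread more widely than WT livers, and the groups did not overlap (1.27 ± 0.26, 2.41-fold, adjusted p = 0.0106). All 5 Aldh18a1 probe sets had positive differences, from 0.78 to 3.74, and the one at 0.79 was not called (adjusted p = 0.0539 over probe sets). All of these sets except the one used are of a type that may read related transcripts, and their WT values lay below background. For the set at 3.74 the WT values were 3.62 to 4.02. The set at 0.79 lay below background on the KO arrays as well. Of the mitochondrial enzymes that clear acetaldehyde, Aldh1b1 was higher and Aldh2 lower, the fall of Aldh2 being lost on the scale of the bacterial controls. Aldh1b1 had 10.40, 10.80 and 10.20 in KO livers and 9.42, 9.44 and 9.50 in WT livers (1.01 ± 0.15, 2.02-fold, adjusted p = 0.00259). Aldh2, the main acetaldehyde dehydrogenase, had 12.21, 12.24 and 12.16 in KO livers and 12.72, 12.58 and 12.73 in WT livers (-0.47 ± 0.09, adjusted p = 0.00767). The 5 probe sets of Aldh2 differed by -0.98 to -0.43. A dimmer set at -0.47 was not called (adjusted p = 0.231 over probe sets), and the set at -0.98 lay below background on the KO arrays. On the bacterial control scale the Aldh2 value turned to 0.04 (adjusted p = 0.69).

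Aldehyde dehydrogenases of the Aldh1a type were called as higher in 2 of 4 members, beside 14.2% of all genes. Whether each of them acts on retinaldehyde was not tested here. Aldh1a1, the cytosolic enzyme of the adult liver that makes retinoic acid, had 14.05, 14.10 and 14.08 in KO livers and 13.72, 13.58 and 13.55 in WT livers (0.46 ± 0.09, 1.37-fold, adjusted p = 0.00906). Its rodent paralogue Aldh1a7 had 13.20, 13.14 and 13.37 in KO livers and 12.55, 12.04 and 12.15 in WT livers (0.99 ± 0.15, 1.98-fold, adjusted p = 0.00259). These paralogues are neighbours in the annotation and closely related, so part of the signal may be shared between their probe sets. Aldh1a2 lay below background on all 6 arrays and Aldh1a3 on 2 of 3 KO and 1 of 3 WT arrays, and neither was called.

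Called falls of the family besides Aldh2 were Aldh1l1, Aldh16a1 and Aldh7a1. Aldh1l1, the cytosolic 10-formyltetrahydrofolate dehydrogenase of one-carbon metabolism, had 12.66, 12.57 and 12.33 in KO livers and 13.10, 12.98 and 12.93 in WT livers (-0.48 ± 0.11, adjusted p = 0.0176). It failed without KO replicate 2 (adjusted p = 0.0527) or KO replicate 3 (0.0534), and centring on the bacterial controls turned its value to 0.03. Its dimmer probe set differed by -0.83 as deposited. Aldh16a1 and the lysine-degrading Aldh7a1 were singled out after their values were seen. They differed by -0.70 ± 0.09 (adjusted p = 0.00115) and -0.45 ± 0.09 (adjusted p = 0.0114). On the control scale these values became -0.18 and 0.06 without a call. As deposited, dimmer probe sets differed by more, at -1.11 for Aldh16a1 and at -1.28 and -1.04 for Aldh7a1. Those dimmer sets were not fitted on the control scale. Aldh7a1 failed without KO replicate 2 (adjusted p = 0.0538). Of the 7 members that act on amino acid and amine aldehydes, 1 was higher (Aldh18a1) and 1 lower (Aldh7a1), and 5 were not called. Aldh9a1, which serves carnitine synthesis, had 12.51, 12.38 and 12.42 in KO livers and 12.50, 12.39 and 12.48 in WT livers (-0.02 ± 0.09, adjusted p = 0.881), a value whose sign changed under 6 of its alternatives.

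Of the 7 Adh genes, class II fell the most. Adh4, which oxidises retinol and ethanol at high concentration, had 11.10, 10.74 and 11.30 in KO livers and 12.05, 11.86 and 12.11 in WT livers. It was 1.95-fold lower (-0.96 ± 0.15, adjusted p = 0.00342), and it stayed lower on the bacterial control scale (-0.45, adjusted p = 0.0353). Adh1, the class I enzyme that carries most ethanol oxidation in liver, was higher by a small step, at 13.95, 13.92 and 13.91 in KO livers and 13.60, 13.56 and 13.62 in WT livers (0.34 ± 0.08, 1.26-fold, adjusted p = 0.0211). Adh1 no longer passed once KO replicate 1, 2 or 3 (adjusted p = 0.0847, 0.0714 and 0.0576) or WT replicate 2 (0.0591) was left out. Adh5, the class III enzyme that removes formaldehyde bound to glutathione, had 12.66, 12.63 and 12.66 in KO livers and 12.39, 12.29 and 12.38 in WT livers (0.30 ± 0.08, adjusted p = 0.0371). Without any single array except WT replicate 3 its call was lost (adjusted p from 0.0568 to 0.117), as it was with the replicate number as a block (0.0659). The mean over its probe sets gave 0.08 (adjusted p = 0.469), but the further Adh5 probe set in that mean lay below background (4.71 over all arrays). Adh7, the class IV retinol dehydrogenase of epithelia, had 6.54, 6.51 and 6.36 in KO livers and 6.78, 6.78 and 6.75 in WT livers (-0.30 ± 0.09, adjusted p = 0.0456). Its call was lost without any of the 6 arrays in turn (adjusted p from 0.0635 to 0.136) and with the block (0.0703), and its value turned to 0.21 on the control scale.

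Signals of the Adh6 genes were at or near background. The pseudogene Adh6-ps1, at 2.92, 2.87 and 2.85 in KO livers and 3.60, 3.56 and 3.18 in WT livers, passed as lower (-0.57 ± 0.13, adjusted p = 0.0152), but all 6 values lay below background, so no fold is given. It lost its call without KO replicate 2 (adjusted p = 0.0581) or 3 (0.0517), and on the control scale. Adh6b, at 4.57, 4.43 and 4.49 in KO livers and 5.07, 4.85 and 4.97 in WT livers, passed as well (-0.47 ± 0.10, adjusted p = 0.0117), with 2 of 6 values above background. Adh6b lost its call without KO replicate 2 (adjusted p = 0.0545), and its sign turned on the control scale. Adh6a lay below background on all 6 arrays and was not called. The 7 Adh genes lie side by side in the annotation in the order Adh7, Adh1, Adh6a, Adh6b, Adh6-ps1, Adh4 and Adh5, so the called rises of Adh1 and Adh5 stand next to called falls.

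Aldo-keto reductases of the 1C type, which act on steroids and prostaglandins, held calls in both directions as deposited. After control centring they held rises alone, in 4 of 9 members, where 71.3% of all genes were higher. Akr1c19 had 10.06, 10.04 and 10.05 in KO livers and 8.71, 8.72 and 8.51 in WT livers, and the KO livers were almost identical. It was 2.64-fold higher (1.40 ± 0.09, adjusted p = 5.93e-05). Akr1c13, its neighbour, had 10.91, 11.01 and 11.04 in KO livers and 10.56, 10.53 and 10.76 in WT livers (0.37 ± 0.10, adjusted p = 0.0301). Akr1c13 failed when KO replicate 1, 2 or 3 (adjusted p = 0.0667, 0.103 and 0.0907) or WT replicate 1 or 2 (0.0683 and 0.083) was left out.

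Further along the same array, Akr1c6, a 17beta-hydroxysteroid dehydrogenase of mouse liver, had 13.13, 12.78 and 13.04 in KO livers and 13.51, 13.63 and 13.57 in WT livers. It was 1.50-fold lower (-0.58 ± 0.11, adjusted p = 0.0085), a call lost on the bacterial control scale (-0.07, adjusted p = 0.619). Akr1c20 had 10.80, 10.93 and 10.52 in KO livers and 11.14, 11.10 and 11.19 in WT livers (-0.39 ± 0.12, adjusted p = 0.0455). Only when KO replicate 2 was left out did Akr1c20 keep its call among the 6 fits without 1 array (adjusted p from 0.0809 to 0.116 in the other 5). The block also removed it (0.069), and the value turned to 0.12 on the control scale. Its dimmer probe set was lower by 1.28. Akr1c12 and Akr1c14, a 3alpha-hydroxysteroid dehydrogenase, had overlapping groups and were not called (-0.08 ± 0.11 and -0.41 ± 0.15). Akr1c14 ran from -0.57 to -0.27 without 1 array, with a call as lower in the fit lacking WT replicate 1 (adjusted p = 0.0147) or with weighted arrays (0.0497). On the control scale Akr1c12 was 0.43 higher and called (adjusted p = 0.0137), and Akr1c14 was 0.11 and not called. In all, 2 of 9 Akr1c members were higher and 2 lower, beside 14.2% and 9.75% of all genes. The members Akr1c12 and Akr1c13 are close relatives, and probe sets assigned to both were left out.

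Outside the 1C type, Akr7a5, which reduces succinic semialdehyde and dialdehydes, had 11.32, 11.21 and 11.33 in KO livers and 11.62, 11.75 and 11.90 in WT livers (-0.47 ± 0.10, adjusted p = 0.0142). It lost its call without KO replicate 2 (adjusted p = 0.0625), and its value was 0.04 on the control scale. Akr1a1, the aldehyde reductase that serves vitamin C synthesis in mice, had 13.36, 13.40 and 13.39 in KO livers and 13.11, 13.16 and 13.17 in WT livers. Its groups did not overlap, but the difference of 0.24 ± 0.08 was not called (adjusted p = 0.0702, from 0.000297 to 0.184 over 15 alternatives), and it passed under 6 of them. Akr1e1, the reductase of 1,5-anhydrofructose, spread from 7.25 to 9.13 in KO livers and from 6.84 to 8.31 in WT livers, with overlapping groups, and its difference of 0.56 ± 0.50 was not called. It ran from 0.095 to 1.03 when 1 array was left out.

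**Figure D3:**
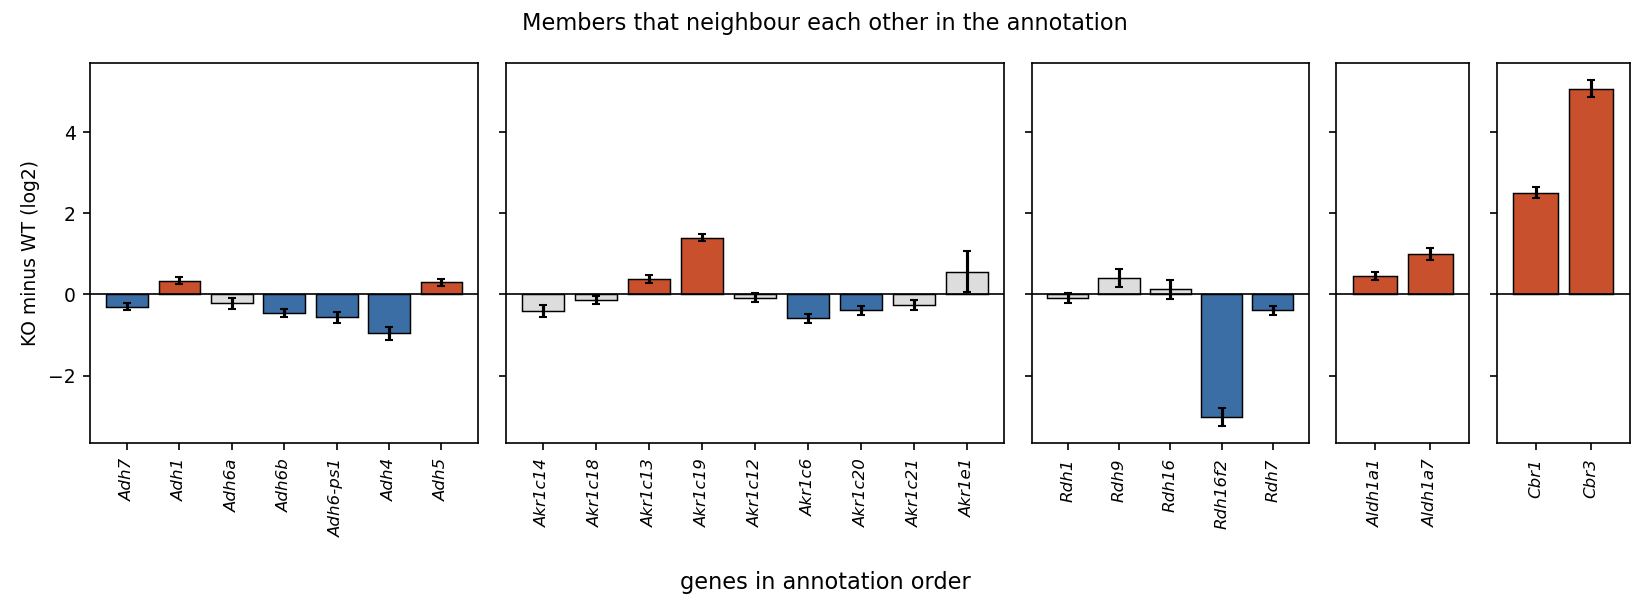
Difference KO minus WT (log2, bars with SE) of members that neighbour each other in the RefSeq annotation of GRCm38.p6, in gene order, with red bars for called rises, blue for called falls and grey for members not called. As deposited, the Adh and Akr1c arrays hold calls in both directions (the Akr1c falls are lost after control centring), Rdh16f2 falls beside neighbours with small differences, and the Aldh1a and Cbr pairs rise together.

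Short-chain retinol dehydrogenases held the largest fall. Rdh16f2, a relative of Rdh16 in the microsomal group, had 7.72, 8.36 and 7.49 in KO livers and 11.12, 10.59 and 10.92 in WT livers, with a wide gap between the groups. It was 8.10-fold lower (-3.02 ± 0.23, adjusted p = 0.000107), and -2.50 on the bacterial control scale (adjusted p = 4.9e-05). Rdh7, which oxidises retinol and androgens in rodent liver and lies beside it, had 12.75, 12.56 and 12.80 in KO livers and 13.18, 13.06 and 13.05 in WT livers (-0.39 ± 0.10, adjusted p = 0.0257). Without KO replicate 1 or 2 (adjusted p = 0.0704 and 0.0974) or WT replicate 1 or 2 (0.0632 and 0.0531) the Rdh7 call was lost, and its value turned to 0.12 on the control scale. Rdh16 and Rdh9, on the other side of Rdh16f2, differed by 0.13 ± 0.24 and 0.41 ± 0.22 and were not called, with overlapping groups. Rdh9 ran from 0.24 to 0.64 without 1 array and passed as higher without WT replicate 2 (adjusted p = 0.0484), where Rdh16 turned to -0.15. On the control scale both Rdh9 (0.92, adjusted p = 0.00704) and Rdh16 (0.64, adjusted p = 0.0256) were higher. The Rdh9 probe set is of a type that may read related transcripts, and the group is closely related in sequence.

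Rdh14, which reduces retinaldehyde, was higher, at 9.67, 9.65 and 9.63 in KO livers and 9.19, 9.15 and 8.74 in WT livers (0.63 ± 0.13, 1.54-fold, adjusted p = 0.0114). Its 2 dimmer probe sets differed by 0.06 and -0.09, and the mean of its probe sets gave 0.20 without a call (adjusted p = 0.0922). Rdh12, known from photoreceptors, passed as lower at 3.88, 4.0 and 3.97 in KO livers and 4.69, 4.51 and 4.21 in WT livers (-0.52 ± 0.13, adjusted p = 0.0235), all below background. The Rdh12 call held only without WT replicate 3 among the 6 fits without 1 array (adjusted p from 0.0509 to 0.0874 in the other 5), and on the control scale the value was -0.01. The remaining 7 Rdh genes were not called. They include Rdh10, the retinol dehydrogenase required in the embryo, and Rdh11.

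In the Dhrs group Dhrs1, an enzyme of the endoplasmic reticulum, had 9.91, 9.33 and 9.57 in KO livers and 10.72, 10.83 and 10.35 in WT livers. It was 2.04-fold lower (-1.03 ± 0.18, adjusted p = 0.00511), and lower on the control scale as well (-0.52, adjusted p = 0.036). Dhrs7 had 8.08, 8.23 and 8.45 in KO livers and 8.96, 8.65 and 9.16 in WT livers (-0.67 ± 0.15, adjusted p = 0.0165). It failed without KO replicate 1 (adjusted p = 0.0682) or KO replicate 2 (0.0626) and on the control scale (-0.16, adjusted p = 0.358). The mean of its probe sets was -0.34 (adjusted p = 0.0646), where the further Dhrs7 sets lay below background by their means. Dhrs13 had 7.68, 7.74 and 7.78 in KO livers and 6.79, 6.58 and 7.03 in WT livers, a rise of 1.91-fold (0.94 ± 0.12, adjusted p = 0.0016). Dhrs4, a retinaldehyde and carbonyl reductase found in peroxisomes, had 11.07, 10.92 and 10.88 in KO livers and 10.79, 10.80 and 10.46 in WT livers. These values did not overlap, but the difference of 0.28 ± 0.12 was not called (adjusted p = 0.131). On the control scale Dhrs4 passed as higher (0.79, adjusted p = 0.00112). Dhrs3, which reduces retinaldehyde to retinol, was not called either.

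Of the 65 members 23 had further probe sets, 37 in all. Of these 29 had the sign of the probe set used, as did 19 of the 21 whose mean lay above background. For called members 19 of 22 further probe sets had the same sign, as did 13 of the 13 above background. Signs were counted whether or not the further probe set was called. No member had probe sets called in both directions.

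Other genes of retinoid handling, ethanol and aldehyde clearance, and steroid or short-chain reductases were taken from lists chosen by role. Of 26 retinoid genes 3 were higher and 5 lower, with a median difference of -0.055, where 24.0% of all genes were called. After control centring 16 were higher and 2 lower (median 0.46), where 71.3% and 2.25% of all genes were called. The largest differences were in Lpl, Cyp26a1, Ces1e and Retsat. Cyp26a1, which degrades retinoic acid and is induced by it, had 7.24, 7.22 and 7.25 in KO livers and 9.93, 9.34 and 9.18 in WT livers (-2.25 ± 0.18, adjusted p = 0.000146). Retsat, retinol saturase, had 12.96, 12.72 and 12.85 in KO livers and 11.21, 11.43 and 11.32 in WT livers (1.52 ± 0.11, adjusted p = 6.59e-05). Ces1e, a carboxylesterase, differed by -1.69 ± 0.21 and Lpl, which releases fatty acids and retinyl esters from lipoproteins, by 2.81 ± 0.36. Lrat, which esterifies retinol, and its carriers Rbp4 and Ttr were not called.

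Among 19 genes of ethanol, aldehyde and quinone clearance 4 were higher and 5 lower (median -0.057), again beside 24.0% of all genes. With control centring 12 were higher and 2 lower (median 0.46), beside 71.3% and 2.25% of all genes. The largest difference was that of the quinone reductase Nqo1 (2.79 ± 0.14). Aox3, the aldehyde oxidase of mouse liver, had 10.47, 10.18 and 10.56 in KO livers and 11.90, 12.16 and 11.77 in WT livers (-1.54 ± 0.14). Glo1, which removes methylglyoxal, had 11.89, 11.75 and 11.68 in KO livers and 12.76, 12.73 and 12.69 in WT livers (-0.95 ± 0.09). The export pump Abcc2 differed by 0.90 ± 0.12.

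Steroid and short-chain reductases were higher in 6 of 33 genes and lower in 11 (median -0.14), beside 14.2% and 9.75% of all genes. This balance turned to 20 higher and 8 lower after control centring (median 0.37), where 71.3% and 2.25% of all genes were called. Hsd3b5, a ketosteroid reductase typical of male mouse liver, had 5.25, 5.48 and 4.38 in KO livers and 11.89, 12.04 and 11.69 in WT livers. KO livers were near background and 1 of the 3 was below it (-6.84 ± 0.26, adjusted p = 6.66e-06). Hsd3b2 fell by 2.40, Bdh2 fell by 1.83 and Hsd17b6 fell by 1.62 on the log2 scale. The 12 genes named with a difference from these 3 lists stayed called in the same direction with each array left out in turn and on the control scale.

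**Figure D4:**
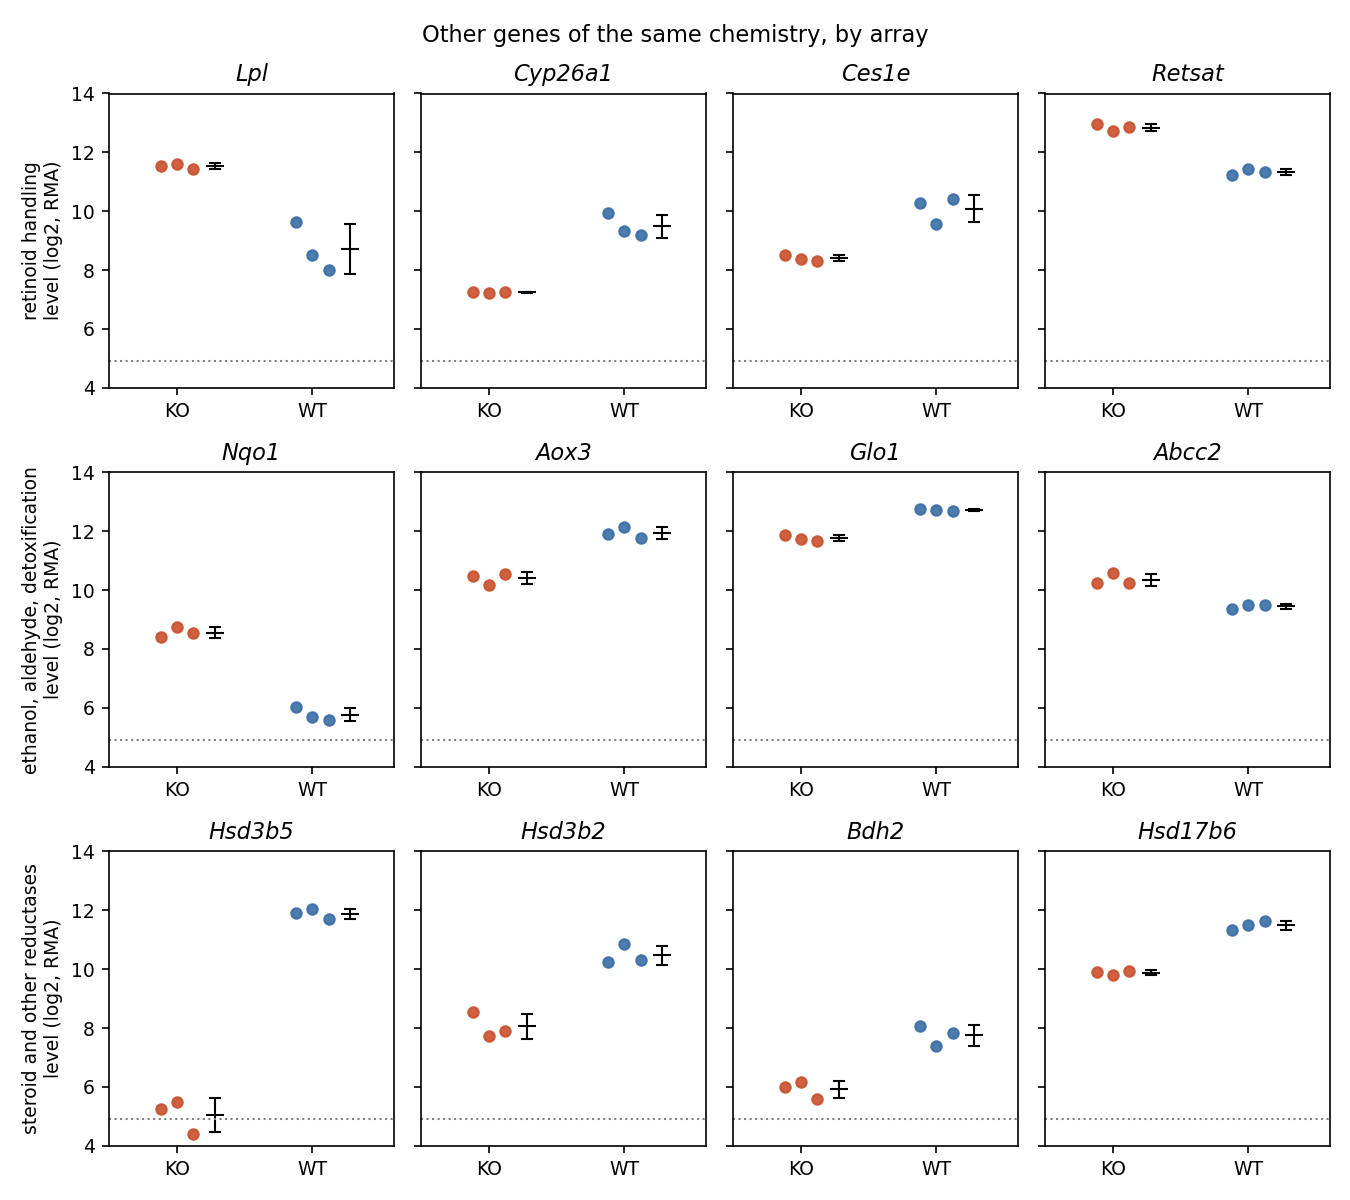
Level (log2, RMA) on each array of the 4 called genes with the largest difference in each list of other genes, KO left of WT, with the mean and SD of 3 livers beside the points and a dotted line at the background of 4.90. KO and WT points do not overlap in any panel, and Hsd3b5 lies near background in KO livers and between 11.69 and 12.04 in WT livers.

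Whole liver holds several cell types, and fewer cells of a type cannot be told apart from less RNA per cell. The mean level of 8 hepatocyte markers was 13.77 to 13.83 on KO arrays and 13.80 to 13.84 on WT arrays, with Fgb lower and the other 7 not called. Of 10 markers of stellate cells, which store retinyl esters, 3 were lower (Dcn, Hand2 and Reln) and the others not called, with means of 7.46 to 7.76 on KO arrays and 7.68 to 7.83 on WT arrays. Endothelial markers averaged 7.35 to 7.49 on KO arrays and 7.32 to 7.57 on WT arrays, 3 of 8 being lower and Lyve1 higher. These averages join opposite differences. Lyve1 was higher by 2.06 ± 0.31, from a WT mean of 4.67, which is below background. All other endothelial markers differed by -0.59 to -0.10, and the median of the 8 was -0.26. Macrophage markers ranged in mean from 7.91 to 8.32 on KO arrays and from 7.50 to 8.67 on WT arrays, and lymphocyte markers from 5.07 to 5.26 on KO arrays and from 5.11 to 5.39 on WT arrays. By limma 0 of these 9 and 7 markers were called, and 0 and 1 had an unadjusted p under 0.05. Of 5 cholangiocyte markers Krt19 was lower, and it lay below background by its mean, as did Krt7 and Cftr. On the bacterial control scale none of these marker falls was called (limma). Rises were called there in 7 of 8 hepatocyte, 5 of 10 stellate and 4 of 8 endothelial markers. They were also called in 1 of 9 macrophage, 2 of 5 cholangiocyte and 3 of 7 lymphocyte markers. Of all genes 71.3% were higher on that scale. The part of these marker shifts in the enzyme differences was not tested.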

How the data were processed

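The deposited values are log2 levels of probe sets. The submitters' processing notes name RMA without a version, and the log2 scale follows from the range of the deposited values, 2.15 to 14.9. Among 45101 probe sets, 64 are controls, 34945 carry a single symbol in the platform annotation, 932 carry several and 9160 have no entry there. All 65 members matched the RefSeq gene table of GRCm38.p6 with the same symbol, and 53 had a RefSeq promoter sequence.

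Sample titles gave the group and the replicate number. Litters are not given in the sources used here. The p-values weigh each group difference against the spread between these livers, as moderated by limma over all genes. The test was limma's (version 3.58.1, R 4.3.3; lmFit, then eBayes without trend), two-sided, on group alone, with Benjamini-Hochberg adjustment over 18193 genes at a threshold of 0.05 and without a filter. The number of arrays limits the precision. The fit was also run on simulated data with independent noise per gene and no shift between arrays. That run checks the code and cannot judge the scaling, and its outcome is not given here. Members and lists were chosen with earlier results of these data known. Values are given for called members with a difference of at least 1, all called members of families with fewer than 3 such, and the 10 members of highest mean, and from each list of other genes for up to 4 called genes with the largest difference. Outside this rule, Aldh16a1, Aldh7a1, Akr1c12, Akr1c14, Akr1e1, Cbr2, Dhrs4, Rdh9 and Rdh16 were added after their values were seen. Alternatives comprised a replicate block, a filter on dim genes, other scalings (one on 38 bacterial control probe sets), other choices of probe set, eBayes with trend, weights per array, stricter calls and fits lacking 1 array.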

Additional observations from a re-analysis of the deposited data

How the results depend on the processing

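Of the 30 called members, 16 were called with each of the 6 arrays left out in turn. In every alternative fit at an adjusted p under 0.05, leaving the stricter calls aside, 12 were called. These 12 were Adh4, Akr1c19, Aldh18a1, Aldh1a1, Aldh1a7, Aldh1b1, Aldh3a2, Cbr1, Cbr3, Dhrs1, Dhrs13 and Rdh16f2. For the members, 14 higher and 16 lower calls became 36 and 3 after centring on the spiked controls, 8 and 6 at an adjusted p under 0.01, and 6 and 2 at an adjusted p under 0.05 with a 2-fold minimum; leaving out 1 array gave 10 to 13 and 7 to 16. Over all genes 2589 higher and 1774 lower became 12970 and 409, 1285 and 732, and 550 and 327 under these 3 settings, and 1497 to 2424 and 888 to 1679 without 1 array. Quantile normalization gave 2074 and 1932, and centring on the array median 2875 and 1469. Control centring turned the sign of 33 of the 65 members, since the setting adds 0.51 to each difference. Among those named in the text with a difference these were Adh6b (0.047), Adh7 (0.21), Akr1c20 (0.12), Akr7a5 (0.0412), Rdh7 (0.12), Aldh1l1 (0.0293), Aldh9a1 (0.49), Aldh2 (0.04), Aldh7a1 (0.0587), Akr1c12 (0.43), Akr1c14 (0.11) and Cbr2 (0.13). Aldh9a1 also turned with the array median (0.0186), the most variable probe set (0.0145) and array weights (0.014), and it ran from -0.0572 to 0.0088 without 1 array, above 0 without KO replicate 2 (0.0088) or WT replicate 1 (5e-04). Rdh16 ran from -0.15 without WT replicate 2 to 0.38 without WT replicate 3. Scaling or the choice of probe set also ended calls not listed so far. Quantile normalization did so for Adh5 (adjusted p = 0.0511), Cbr4 (0.0612) and Rdh12 (0.0632), the array median for Adh7 (0.0744) and Akr1c20 (0.0649), the most variable probe set for Adh5 (0.0553) and Adh7 (0.0635), the mean of probe sets for Adh7 (0.0813), and eBayes with trend for Adh7 (0.0708). The cause was not tested for these or for the calls lost without 1 array. The further Adh7 probe set that entered the mean of probe sets lay below background.

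With the replicate number as a block, 13 members were higher and 15 lower, and 2471 and 1618 of all genes. Deviations of same-numbered livers correlated at 0.10, -0.02 and 0.11, and replicate 3 alone matched its own number best, so the numbers were not taken to pair the livers. The block removed the calls of Adh5, Adh7 and Akr1c20 and no other named call.

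The 11 members with a mean at or below background, with 3 calls, are limited by signal, and no fold is given for them.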
